A study of Ovis aries with 15 samples.

Results

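The genes described here are those that the deposited kidney expression table assigns to the peroxisome. A gene was a member when its KEGG column held the peroxisome pathway entry and not the PPAR signaling entry, and when it was not 1 of the general antioxidant genes SOD1, SOD2, CAT, PRDX1, PRDX5 and GSTK1 or a mitochondrial carrier of the SLC25A family. Of 25592 genes in the table, 351 held the peroxisome entry, 16 of these were left out for the PPAR entry and 7 by name, and 328 remained. The rule itself uses no expression value.

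Peroxisomes are single-membrane organelles that take in fully folded proteins from the cytosol. Their enzymes shorten very long and branched fatty acids, start the synthesis of ether lipids, and oxidise D-amino acids, 2-hydroxy acids, sarcosine and polyamines, with hydrogen peroxide as the by-product of the oxidases. The proteins named PEX (peroxins) build the organelle, import its enzymes and divide it. In the kidney, peroxisomes are best known from the proximal tubule, where they are abundant and large.

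The RNA, labelled as kidney, came from male Dorper and Small-tailed Han crossbred sheep that were 4 months old and received their diets for 21 days. The CON group received the basal diet, the AFB1 group the same diet with aflatoxin B1, a mould toxin, at 500 µg per kg of dry matter. For the AFB1_CUR group, curcumin, a plant polyphenol, was added to that dose of toxin at 800 mg per kg of dry matter. No group received curcumin alone. Each group held 6 sheep penned by 2, of which 5 gave a library, so sheep of a pen shared their feed and housing. The labels do not say which part of the kidney was taken.

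The 15 libraries held 50255295 to 68747047 counted reads. The library labelled AFB1 replicate 1 stood apart: its mean log2(FPKM + 1) over 14 hepatocyte markers was 10.44 against 1.27 to 2.75 in the other 14 libraries, and over 9 proximal tubule markers it was 0.59 against 6.44 to 8.05. Its albumin gene ALB had an FPKM (fragments of a transcript scaled to its length and to the mapped total) of 25681, the other libraries had at most 23.9, and the podocyte gene NPHS1 had an FPKM of 0 in it. Its markers are those of liver and not of the labelled kidney. It was therefore kept out of the main comparisons of groups and is described on its own, which left 4 AFB1 libraries. Among the 14 others, AFB1_CUR replicate 2 had the highest leukocyte score (4.74, the next highest being 3.95 in AFB1 replicate 2) and the lowest proximal tubule score (6.44).

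The pathway entry described only a minority of the members well. For 72 of the 328, the symbol or the description in the file names a protein of the peroxisome map or a close relative of such a protein: 61 by symbol and 11 by description. These are called known-role members below. Some of them, such as IDH2, MPV17 and NUDT13, are known mainly from mitochondria. The other 256 were kept apart, and 232 of these carried the ortholog number of PAOX, the peroxisomal polyamine oxidase. For 40 of the 256, 3 of which were tested, the description holds the name of the PAOX protein, alone or beside other proteins. The 256 included 170 genes with a provisional LOC symbol and 30 described as reverse transcriptases, and 26 had no count above 10 in any library. They are called members without a known role below. Examples with a well-known role elsewhere are HRG, the plasma histidine-rich glycoprotein, ZDHHC3, a palmitoyltransferase, and ZNF639, a zinc finger protein. A few others carry the ortholog number of a different peroxisomal gene, such as COLQ, a collagen-like anchor of acetylcholinesterase, which carries that of HACL1.

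Of the members, 135 had 5 or more libraries with an FPKM of 1 or above and were tested, 65 of the known-role members and 70 of the rest. All 15 libraries counted toward this limit, AFB1 replicate 1 among them. Just inside this limit, 7 members reached it in 5 or 6 libraries, and just outside it 4 members reached it in 3. The 7 known-role members left untested were hardly expressed in the 14 libraries. They were ABCD2 (a fatty acid transporter), FAR2 (a fatty acyl-CoA reductase), PEX5L (a relative of the import receptor PEX5), SCP2D1, XDH (xanthine dehydrogenase) and the provisional genes LOC101106149 and LOC114112875. FAR2 reached the highest FPKM of these in the 14 libraries, 1.05, and its highest count was 271. The other 186 untested members were not known-role members.

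The enzymes were by far the most expressed members in control kidney. The known-role member with the highest level was HAO2, the 2-hydroxy acid oxidase on chromosome 1, and its FPKM in the 5 CON libraries was 406, 405, 392, 479 and 540, or 444 ± 63.4 (SD, n = 5). That mean lay above those of 99.3% of the tested genes and was 15.6% of the summed FPKM of the known-role members. The 10 most expressed of the 65 together made up 65.9% of that sum. They were 3 enzymes of 2-hydroxy acid, glyoxylate and D-amino acid metabolism (HAO2, AGXT and DAO), 5 of fatty acid oxidation (PHYH, ECI2, DECR2, PECR and ECH1), IDH2, an NADPH-making isocitrate dehydrogenase, and LOC101119050, described as the short-chain dehydrogenase DHRS4. Part of the PHYH signal is uncertain, because LOC121816309, described as a partial phytanoyl-CoA dioxygenase like PHYH, overlaps it by 9036 bases on the opposite strand and the sources used here do not say whether strand was used in counting.

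Among the fatty acid enzymes, PHYH, which starts the breakdown of phytanic acid, was at 169 ± 52.2 FPKM (SD, n = 5) in CON. ECI2 and DECR2, which handle double bonds of unsaturated fatty acids, were at 138 ± 13 and 128 ± 9.14. HSD17B4, the bifunctional enzyme of peroxisomal beta-oxidation, was at 71.0 ± 20.6 and AMACR, which turns branched acyl groups to the form the oxidases accept, at 53.7 ± 14.9. HACL1, the lyase that follows PHYH, was lower at 8.82 ± 3.10. The low end held the nudix hydrolases of coenzyme A, NUDT7 (3.22 ± 0.43) and NUDT19 (2.71 ± 0.49).

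Of the hydrogen peroxide producing oxidases, HAO2 and DAO were high, PIPOX, which oxidises pipecolate and sarcosine, was at 49.6 ± 12.3 FPKM and DDO, which oxidises D-aspartate, at 21.7 ± 4.20. HAO1, the glycolate oxidase best known from liver, was at 19.0 ± 4.93, and PAOX at 10.7 ± 2.51. DAO, the D-amino acid oxidase, had values of 145, 96.6, 96.9, 225 and 163 FPKM in the 5 CON libraries. XDH was between 0 and 0.14 in the CON libraries. Of the ether lipid genes, GNPAT was at 8.96 ± 1.1, AGPS at 5.94 ± 0.87 and FAR1 at 1.5 ± 0.39. Their means lay above those of 59.6%, 48.0% and 11.9% of the tested genes.

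The peroxins were all less expressed than the 10 most expressed known-role members. PEX5, the receptor for most matrix enzymes, was the most expressed at 49.0 ± 10.2 FPKM, above the other receptor PEX7 at 7.22 ± 0.81. The membrane protein inserters PEX16, PEX19 and PEX3 were at 20.7 ± 3.2, 17.8 ± 1.31 and 9.74 ± 1.72. The receptor export proteins PEX26 and PEX6 were at 16.6 ± 3.05 and 12.4 ± 1.70, and the division proteins PEX11G and PEX11A at 12.2 ± 3.21 and 2.75 ± 1.63. The ubiquitin ligase proteins PEX10 and PEX2 were at 7.53 ± 0.70 and 4.99 ± 0.85, and the docking proteins PEX14 and PEX13 at 5.71 ± 0.57 and 4.76 ± 1.80. PEX11A overlaps PLIN1 by 7063 bases on the same strand, so its counts are uncertain. Of the membrane transporters, ABCD3 was the most expressed at 30.5 ± 3.99, followed by PXMP2, a channel, at 24 ± 5.03.

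Over the 14 libraries, the ratio of the highest to the lowest FPKM had a median of 1.58 for the 16 tested PEX genes and 2.49 for the other known-role members, and 2.06 over every tested gene. LOC105607887, at 0 in some libraries, was left out of this. Single genes overlapped widely: the ratio ran from 1.32 to 5.34 (PEX11A) for the PEX genes and from 1.22 (PXMP4) to 7.68 for the others, and the difference between the sets was not tested.

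**Figure D1:**
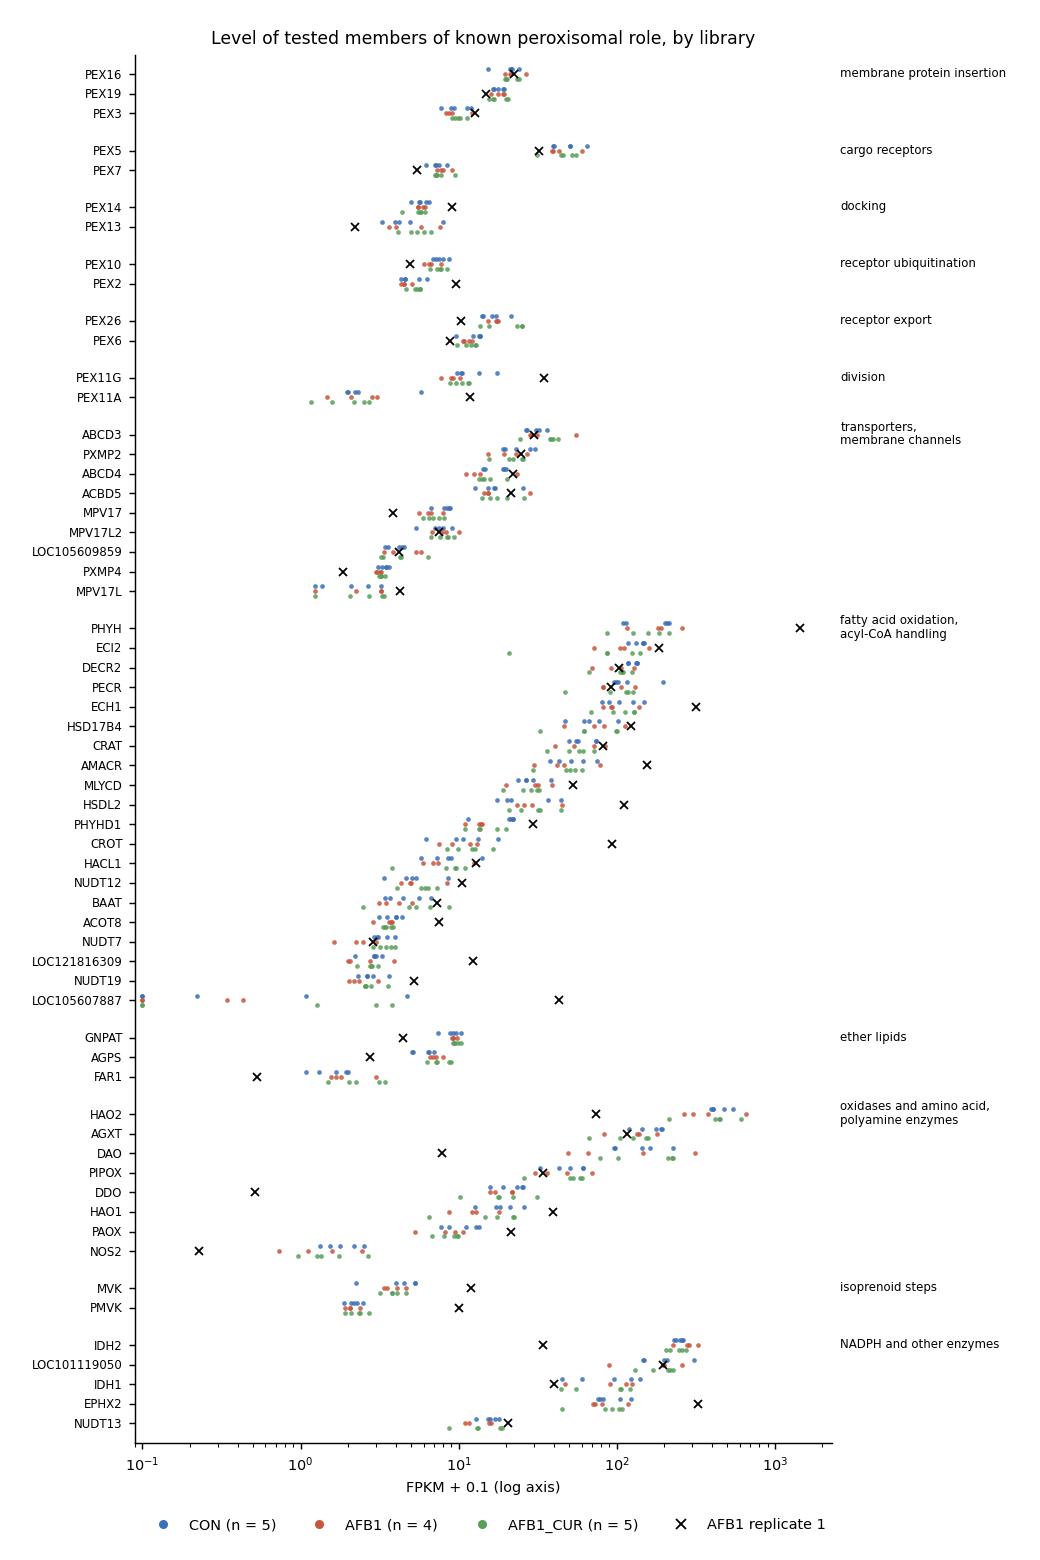
Each point is the FPKM + 0.1 (log axis) of 1 known-role member in 1 library (60 of the 65 tested are drawn), coloured by group, with AFB1 replicate 1 as a black cross and genes ordered by role and by CON mean. Among the coloured points HAO2 has the highest levels and the peroxins stay at or below 64.4. The 3 groups overlap for every gene shown, and the cross lies outside the points for 43 of the 60 genes.

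The comparison of AFB1 with CON asks whether the toxin changed these genes in the kidney. None of the 135 tested members was called different at an unadjusted p under 0.05 with a fold change above 1.5, where the same limits called 1.75% of all tested genes. Most estimates were small: 61 of the 65 known-role members lay within 0.5 of 0 on the log2 scale, and their median was −0.10 against 0.02 for all tested genes. By edgeR's quasi-likelihood test, 5 members (3 of them known-role) had an unadjusted p under 0.05, where 5.03% of all genes did, and after Benjamini-Hochberg adjustment 0 members and 0 genes passed. DESeq2 also called 0 members after adjustment (17 of all genes), with 6 at an unadjusted p under 0.05 (6.15% of all genes), and limma 0 (0 of all genes), with 8 (4.1%). These p-values rest on the spread between single sheep of a group.

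The known-role members with the smallest p were NUDT7, PHYHD1 and PEX11G, all lower in AFB1. NUDT7, a coenzyme A diphosphatase, was at 3.87, 3.44, 3.00, 2.96 and 2.82 FPKM in CON and at 1.52, 2.88, 2.14 and 2.39 in AFB1, so the groups overlapped only through AFB1 replicate 3. Its log2 difference was −0.52 (SE 0.20), with an adjusted p of 0.957 by edgeR. PHYHD1, a relative of PHYH, had 4 CON libraries between 20.9 and 22.0 and 1 at 11.4, against 10.8 to 13.9 in AFB1, a log2 difference of −0.58 (SE 0.23). For PEX11G, the log2 difference was −0.45 (SE 0.20), with AFB1 libraries at 7.64 to 10.1 and CON libraries at 9.65 to 17.3.

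No known-role member had groups without overlap between AFB1 and CON. Of the other members, 3 did, where 1.54% of all tested genes did, and each carried the PAOX number. CCDC157 was at 1.24 to 1.62 FPKM in CON and 0.90 to 1.19 in AFB1, WBP2 at 35.4 to 41.4 and 32.4 to 35.4 (apart only before rounding), and ZDHHC3 at 3.23 to 3.56 and 3.69 to 4.21. At the extremes of the estimates, LOC105607887, described as a phytanoyl-CoA dioxygenase, had a log2 difference of −2.93, but it was at 0 FPKM in 2 CON and 2 AFB1 libraries and its CON mean rested on 1 library at 4.61. It reached the limit for testing only with AFB1 replicate 1 counted. LOC132658571, described as an uncharacterised C10orf88 protein, had −2.84 (SE 1.40), with CON libraries at 0, 2.54, 3.66, 3.2 and 0.99 and AFB1 libraries at 0 to 0.64. FAR1 had the highest estimate, 0.33. The 10 transporter and channel genes and the 6 tested oxidases that make hydrogen peroxide held no member with an unadjusted p under 0.05, and their median log2 differences were 0.12 and −0.16.

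The comparison of AFB1_CUR with AFB1 asks what curcumin changed in toxin-fed sheep. It shares the AFB1 libraries with the comparison above, so the values of a gene in both are not independent. Again 0 members were called, beside 0.94% of all tested genes (0.409% higher and 0.531% lower), and edgeR gave 1 member an unadjusted p under 0.05, where 2.3% of genes had one, and 0 an adjusted p under 0.05. DESeq2 and limma also called 0 members after adjustment (3 and 0 of all genes), with 1 and 2 at an unadjusted p under 0.05 (3.13% and 2.33% of all genes). The median log2 difference of the known-role members was −0.02 and 63 of the 65 lay within 0.5 of 0. The 1 member was NUDT7, at 3.07, 2.77, 3.66, 3.88 and 3.39 FPKM in AFB1_CUR. Its log2 difference from AFB1 was 0.52 (SE 0.20), with an adjusted p of 1 by edgeR, and AFB1_CUR replicate 2 lay below AFB1 replicate 3. All 10 transporter and channel genes had estimates below 0, from −0.21 to −0.01, and none had a p under 0.05. Estimates below 0 were also found for 45 of the 65 known-role members and for 6592 of the 13193 tested genes. The signs of these genes are not independent, since they come from the same libraries. Groups without overlap were found for 2 members without a known role, KANK1 and ZNF639, where 0.682% of all genes had none. ECI2 had one of the lowest estimates (−0.38), with 20.9 FPKM in AFB1_CUR replicate 1 and 86.4 to 140 in the other AFB1_CUR libraries.

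The comparison of AFB1_CUR with CON asks how far sheep on both additions differed from controls. It shares the CON libraries with the first comparison and the AFB1_CUR libraries with the second. One member was called, 1 of 135 beside 1.64% of all tested genes. It was LOC121817288, described as a cilia- and flagella-associated protein and without a known peroxisomal role, which was lower in AFB1_CUR. It was at 7.12, 5.96, 7.26, 4.79 and 7.12 FPKM in CON and at 2.67, 3.70, 4.21, 5.09 and 3.04 in AFB1_CUR, a log2 difference of −0.85 (SE 0.37) with an adjusted p of 0.823 by edgeR. Its AFB1 libraries spanned both groups, from 1.63 to 9.04. With 1 library left out at a time, it was called in 8 of 14 fits, and the call was lost without CON replicate 1, 3 or 5 or without AFB1_CUR replicate 1, 2 or 5.

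In the same comparison, 2 known-role members had an unadjusted p under 0.05, where 5.5% of all genes did, both of ether lipid synthesis. AGPS, the alkyl-DHAP synthase, was at 4.99 to 6.90 FPKM in CON and 6.20 to 8.86 in AFB1_CUR, a log2 difference of 0.28 (SE 0.11). FAR1, the reductase that supplies its fatty alcohol, was at 0.99 to 1.88 and 1.40 to 3.33, a difference of 0.58 (SE 0.25). GNPAT, the first enzyme of the same path, had a difference of 0.02. Both adjusted p values were 0.823 by edgeR. FAR1 was highest in AFB1_CUR replicate 2, at 3.33, where the leukocyte score was highest too, and the part of that library's other cells in the value was not tested. After adjustment, 0 members passed by edgeR, DESeq2 or limma (0, 1 and 0 of all genes). At an unadjusted p under 0.05 there were 5, 6 and 5 members, beside 5.5%, 6.68% and 5.21% of all genes. Besides LOC121817288, the members without a known role among the 5 were MDFIC, a regulator of transcription (0.55, SE 0.21), and ZNF639 (0.43, SE 0.18). The median of the known-role members was −0.10, and 62 of the 65 lay within 0.5 of 0. The exceptions were FAR1, ECI2 (−0.67) and PEX11A (−0.57), the last with 1 CON library at 5.65 and the others at 1.87 to 2.2.

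**Figure D2:**
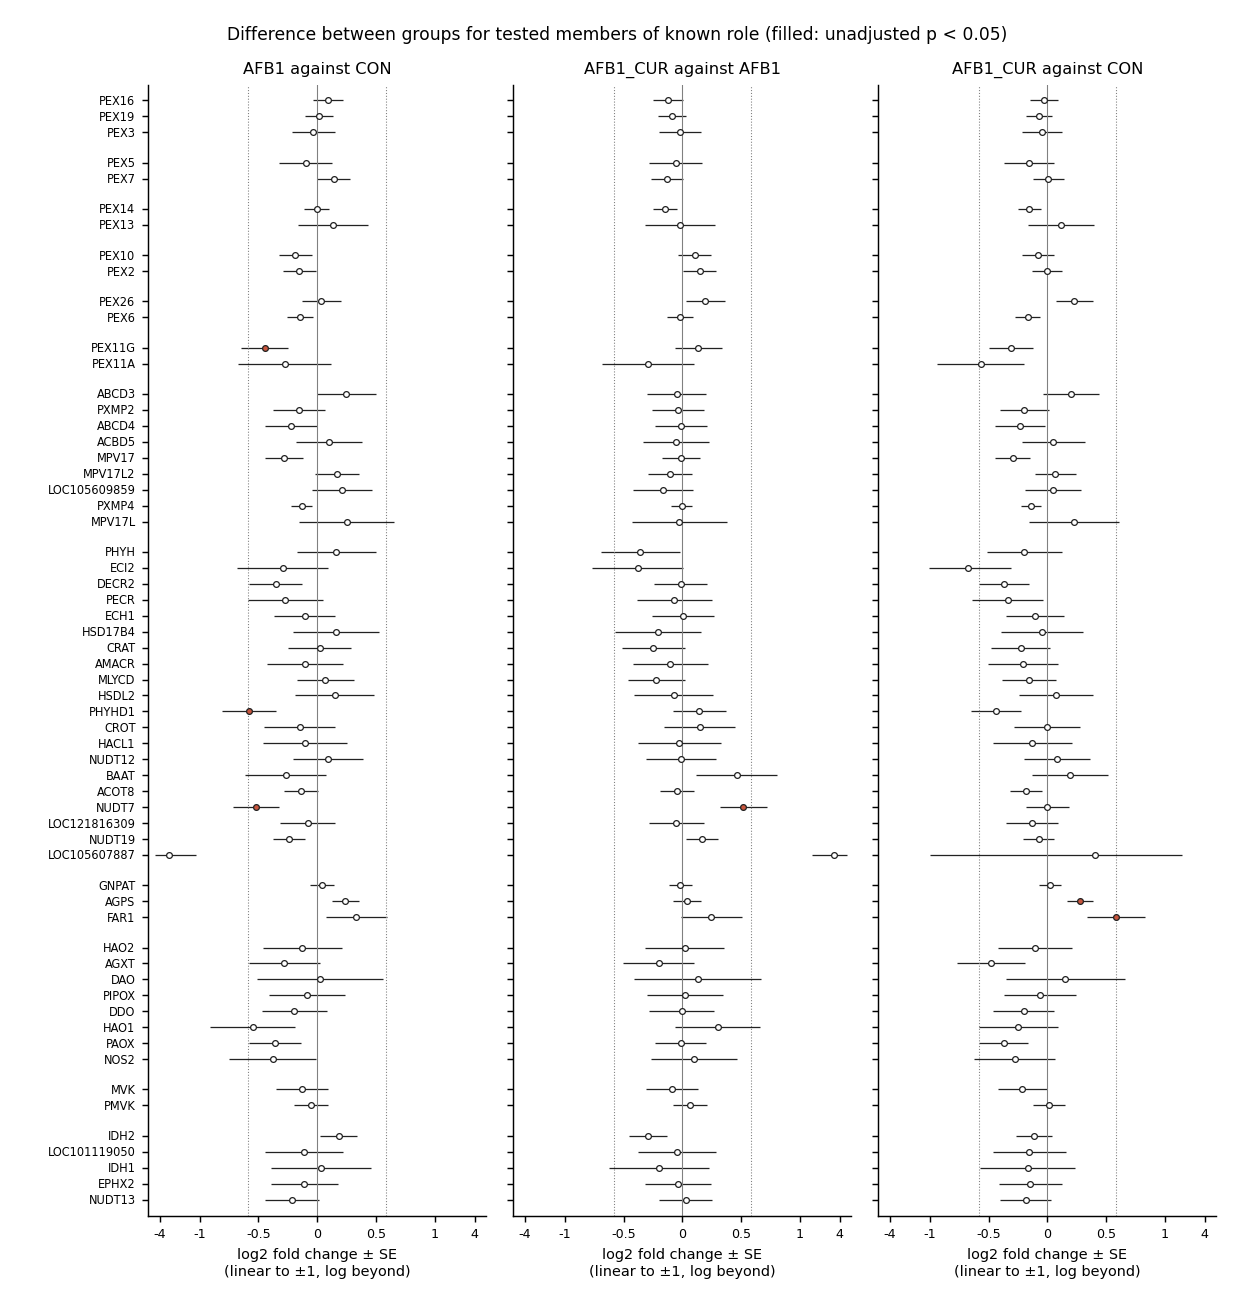
Log2 fold change with its standard error (bars) from edgeR for 60 of the 65 tested known-role members in the 3 comparisons. The axis is linear to ±1 and logarithmic beyond, dotted lines mark the 1.5-fold limits, and filled points have an unadjusted p under 0.05: 3 in AFB1 against CON, 1 in AFB1_CUR against AFB1 and 2 in AFB1_CUR against CON.

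Within the groups, many known-role members were higher in libraries with higher proximal tubule markers. The score of these markers averaged 7.46 ± 0.40 (SD, n = 5) in CON, 7.04 ± 0.63 (n = 4) in AFB1 and 7.23 ± 0.50 (n = 5) in AFB1_CUR, and for the differences of −0.43, 0.20 and −0.23 the exact two-sided permutation test gave p = 0.254 for AFB1 against CON, 0.619 for AFB1_CUR against AFB1 and 0.468 for AFB1_CUR against CON (0.619 each after adjustment over the 3). The slope of each gene on the score was then fitted with the group as a factor, so that it measured change between libraries of the same group. Of the 65 known-role members, 33 had a slope with an adjusted p under 0.05 by edgeR, all 33 of them positive. Among all tested genes, 12.3% had a positive and 13% a negative slope by this limit. The median slope of the known-role members was 0.44 on the log2 scale per unit of the score, and that of all genes −0.02. In RNA from pieces of tissue, more cells of a type and more RNA of a gene per cell cannot be told apart. Without AFB1_CUR replicate 2 and AFB1 replicate 2, the libraries with the highest leukocyte scores, 23 known-role members passed, all with a positive slope (all genes, 7.98% positive and 7.56% negative). On log2(FPKM + 1) with limma, 30 had a positive and 1 a negative slope, where all genes had 6.95% and 21.8%. With the replicate number as a block, 0 of the 65 passed, beside 0.553% of all genes with a positive slope, and the median was 0.33.

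Differences between the roles in how many members passed were not tested. By the same adjusted limit, 12.3% of all tested genes had a positive and 13% a negative slope. Of the fatty acid enzymes, 14 of 20 passed, with a median slope of 0.70. Of the oxidases and amino acid enzymes 5 of 8 did (median 0.84), the exceptions being DDO (0.59, adjusted p = 0.0525 by edgeR), PAOX (0.03) and NOS2 (−0.24), the inducible nitric oxide synthase. For NADPH and other enzymes the count was 4 of 5, IDH2 (0.27) being the exception, and for transporters and channels it was 4 of 10. Among the PEX genes it was 6 of 16 with a median of 0.25, among them PEX11A, PEX13, PEX5, PEX11G and PEX3. Of the 3 ether lipid genes, the 3 genes listed for isoprenoid steps and the 3 receptor ubiquitination proteins, 0 passed, and 1, 0 and 2 had an unadjusted p under 0.05, where 37.4% of all genes did. Counts this small lie near the background.

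DAO had the steepest slope of the known-role members, 1.35 (SE 0.31, adjusted p = 0.00747 by edgeR). Its FPKM was 49.3, 66.0, 147 and 313 in the 4 AFB1 libraries, whose scores were 6.77, 6.53, 6.90 and 7.95. In AFB1_CUR it was 102, 227, 78.7, 210 and 223 at scores of 6.44, 7.12, 7.33, 7.57 and 7.71. The order of the levels thus followed the score only in part. HAO2 followed it more closely, with a slope of 0.97 (SE 0.14) and levels of 214, 452, 416, 443 and 608 FPKM in the same AFB1_CUR libraries. HACL1 (1.02), PEX11A (0.98), HAO1 (0.97) and BAAT (0.97), the bile acid conjugating enzyme, had similar slopes. PEX11A depended on CON replicate 5, the library with the highest score, for its highest level, and without that library it still passed.

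ABCD3, which carries branched and dicarboxylic fatty acids into the organelle, had the smallest p, with a slope of 0.76 (SE 0.09, adjusted p = 0.000273 by edgeR). In CON it was 26.5, 26.9, 30.8, 32.3 and 36.1 FPKM in the order of the score, in AFB1 28.2, 28.6, 31.3 and 54.8, and in AFB1_CUR 24.3, 37.9, 38.4, 39.7 and 42.1. In all 3 groups its level thus rose with the score from library to library. ACBD5, which tethers peroxisomes to the endoplasmic reticulum, had a slope of 0.77 (SE 0.13), while ABCD4 had a slope of 0.33 that did not pass.

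**Figure D3:**
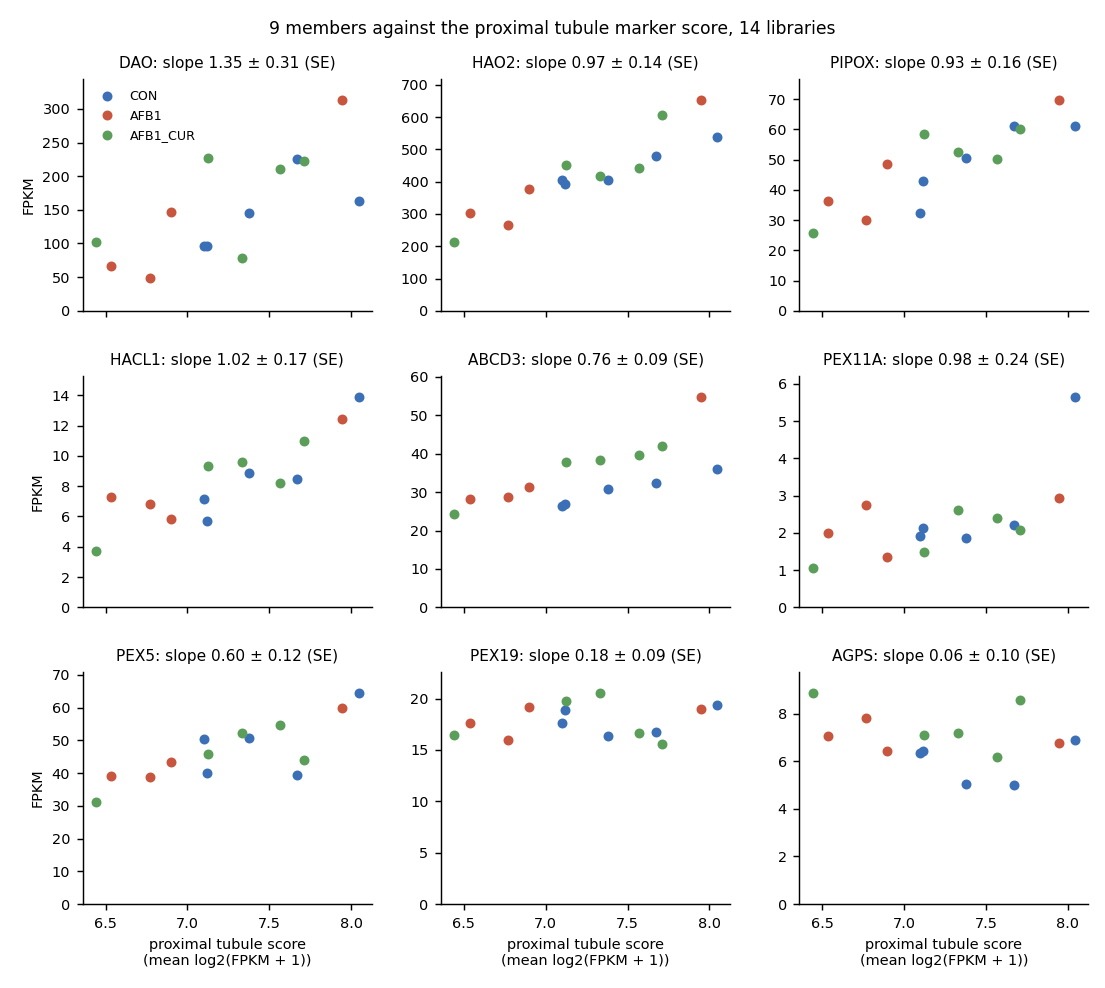
FPKM of 9 members in 14 libraries (points, coloured by group) against the proximal tubule score, the mean log2(FPKM + 1) of 9 marker genes. DAO, HAO2, PIPOX, HACL1, ABCD3, PEX11A and PEX5 tend to be higher in libraries with a higher score, while PEX19 and AGPS had slopes of 0.18 and 0.06 that did not pass the limit.

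**Figure D4:**
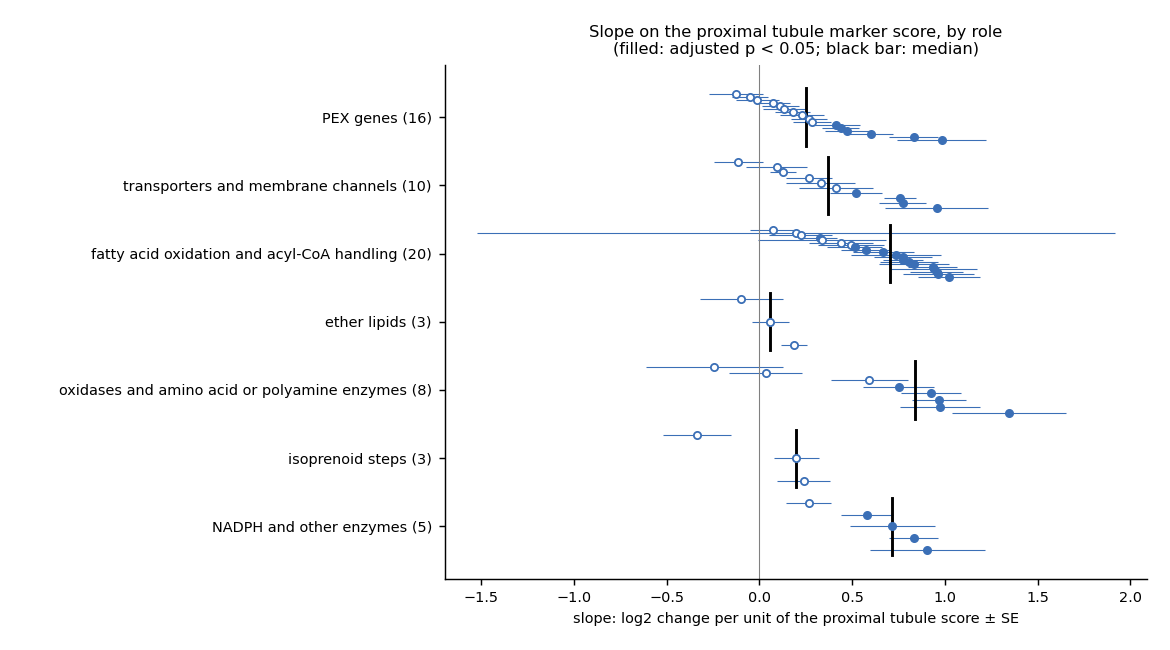
Slope on the proximal tubule score, in log2 units per unit of the score, with its standard error, for the 65 tested known-role members in rows by role. Filled points passed an adjusted p of 0.05 and black bars are medians: the fatty acid, oxidase and NADPH rows have medians of 0.70, 0.84 and 0.72, the PEX row 0.25 and the ether lipid row 0.06.

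The members without a known role gave 16 of 70 (22.9%) with a slope past the limit, 12 positive and 4 negative, near the 25.3% of all tested genes. The steepest was HRG, with a slope of 2.26. It was at 15.5 FPKM in CON replicate 5 and at 0.40 to 2.34 in the other CON libraries. GASK1B had the lowest slope past the limit, −0.93.

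With the proximal tubule score as a term in the comparison of groups, the median log2 difference of the 65 known-role members turned from −0.10 to 0.13 in AFB1 against CON, and was −0.13 in AFB1_CUR against AFB1 and −0.01 in AFB1_CUR against CON. ABCD3 then had a log2 difference of 0.50 (SE 0.10) between AFB1 and CON, against 0.25 (SE 0.25) without the term. Its unadjusted p was 0.000329 and its adjusted p 0.314 by edgeR. Between AFB1_CUR and CON its difference was 0.34 (SE 0.10), with an adjusted p of 0.623. At scores near 7.12, for instance, CON replicate 3 had 26.9 FPKM and AFB1_CUR replicate 3 had 37.9. HSDL2 (0.59), PEX13 (0.47) and ACBD5 (0.38) were the other known-role members with a positive AFB1 difference and an unadjusted p under 0.05, which made 4 of 65 beside 4.62% of all genes. NUDT7 (−0.44) was the 1 known-role member with a negative AFB1 difference and such a p, beside 5.28% of all genes. At the p and fold limits 2 members were called between AFB1 and CON with the term, HSDL2 among them, beside 2.11% of all genes. No member passed the adjusted limit.

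AFB1 replicate 1, the library with liver markers, held the peroxisomal genes in other proportions. It has no replicate, so its levels are given as a description beside the range of the other 14 libraries. Of the 65 known-role members, 28 lay above that range, 17 below and 20 within it. On the FPKM scale 9.77% of all tested genes lay above and 61.4% below, and the median gene was lower by 0.59 on the log2(FPKM + 1) scale. After TMM scaling, where the median gene differed by −0.04, 43 known-role members lay above and 8 below (all tested genes, 28.1% and 32.9%). The scale turned the position of PEX6 and PEX19 from below to above. The genes named in the next paragraphs had the same position on both scales unless stated.

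Of the fatty acid enzymes, 14 of the 20 tested lay above and 0 below. PHYH was at 1436 FPKM, where the other libraries spanned 86.2 to 260. CROT, the carnitine octanoyltransferase, was at 93.2 against 6.08 to 17.7, AMACR at 156 against 29.5 to 78.5, ECH1 at 318 against 69.1 to 148 and HSDL2 at 111 against 17.3 to 45.0. LOC105607887, described as a phytanoyl-CoA dioxygenase on chromosome 13 at chr13:27281408-27288409, was at 43.1 against 0 to 4.61, and how reads were split between PHYH and this gene was not tested. LOC105607887 is among the tested genes only because AFB1 replicate 1 counted toward the limit for testing. MVK and PMVK, of the mevalonate path, lay above too, PMVK being at 9.91 against 1.77 to 2.63. EPHX2, the soluble epoxide hydrolase, was at 324 against 44.8 to 122.

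The oxidases split. HAO1 and PAOX lay above the other libraries, at 39.5 and 21.5 FPKM against 6.39 to 26.0 and 5.22 to 13.3. XDH, which was not tested, was at 49.3 against 0 to 0.91, with a count of 14024. Its next highest value was in AFB1 replicate 2. DAO lay below at 7.70 against 49.3 to 313, DDO at 0.42 against 10.1 to 31.0, HAO2 at 73.7 against 214 to 653 and NOS2 at 0.13 against 0.63 to 2.56. PIPOX and AGXT lay within the range. IDH2 at 34.2 was below a range of 204 to 327, and IDH1 at 40.2 was below 44.3 to 141 in FPKM only.

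Of the 16 tested peroxins, 6 lay above, 6 below and 4 within the range in FPKM, and 11 lay above and 0 below after TMM scaling. PEX11G was at 34.6 against 7.64 to 17.3 and PEX11A at 11.6 against 1.06 to 5.65. Both promote division. PEX11A overlaps PLIN1 on the same strand, and PLIN1 was also higher in this library, at 2.59 FPKM against 0.18 to 0.51. PEX2, PEX3 and PEX14 lay above as well, by less. In FPKM, PEX6, PEX7, PEX10, PEX13, PEX19 and PEX26 lay below, PEX13 at 2.11 against 3.19 to 7.81. The 3 ether lipid genes AGPS, FAR1 and GNPAT lay below, at 2.65, 0.43 and 4.32 FPKM. Of the 70 members without a known role, 2 lay above and 48 below in FPKM, and 9 above and 30 below after TMM scaling. HRG was at 126 against 0.40 to 15.5, and TMTC1, an O-mannosyltransferase, at 0.41 against 8.32 to 15.9.

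**Figure D5:**
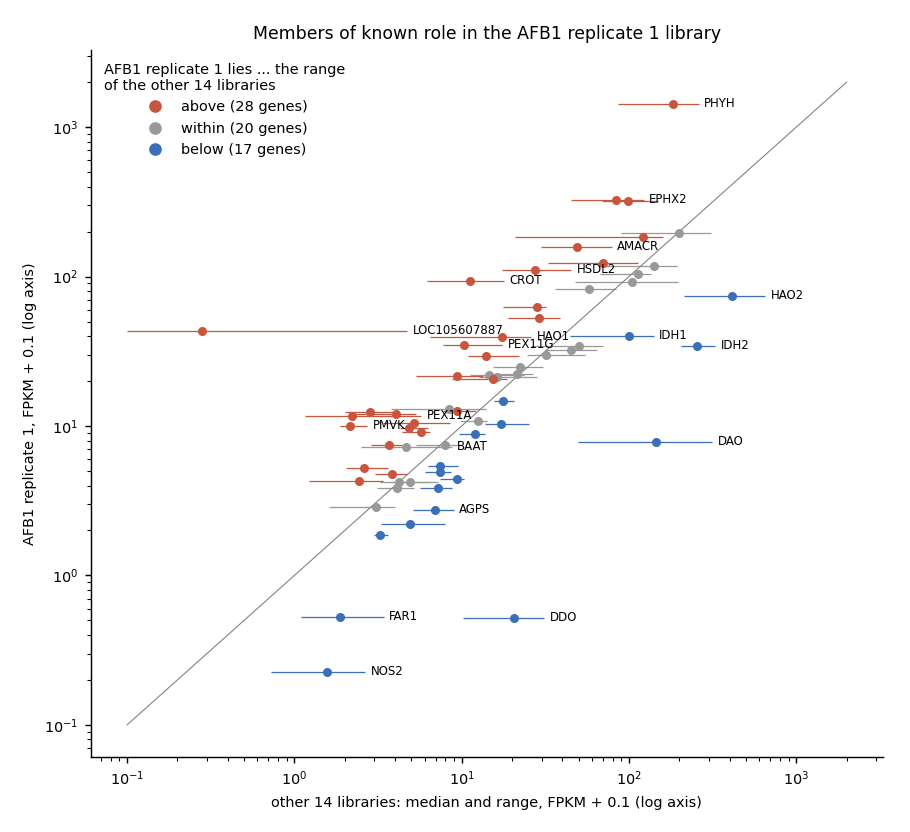
FPKM + 0.1 of the 65 tested known-role members in AFB1 replicate 1 (vertical) against the median and range of the other 14 libraries (horizontal), both on log axes, with a line of equality. PHYH, CROT and LOC105607887 lie farthest above it, and DAO, DDO and HAO2 lie below it. LOC105607887 is among the tested genes only because AFB1 replicate 1 counted toward the limit for testing.

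When this library was put back into the AFB1 group, 6 members were called between AFB1 and CON and 6 between AFB1_CUR and AFB1. In the first case 4 were higher, the known-role members CROT (log2 difference 1.75), PHYH (1.86) and PMVK (1.21) and HRG (3.26), while CCDC157 and LOC132658571 were lower. All genes gave 3.84% called higher and 1.01% lower. In the second case all 6 were lower in AFB1_CUR: CROT, PHYH, PMVK, PEX11A, LOC121816309 and HRG, and 3.39% of all genes were called lower and 0.591% higher. Between AFB1_CUR and CON, where the library takes part only through the shared spread, 0 members were called, beside 0.75% of genes higher and 0.243% lower. In the fit of slopes with this library, 7 known-role members had a positive and 24 a negative slope past the adjusted limit (all genes, 21% and 16.6%), with a median of −0.11. Without the library, CROT differed by −0.15 and PHYH by 0.16 between AFB1 and CON, and neither was called.

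Peroxisomal genes outside the member list were counted in the same fits. Of the 23 genes with the peroxisome entry that the rule left out, 21 were tested and 15 had a positive slope on the proximal tubule score past the adjusted limit, with 0 negative, beside 12.3% of all tested genes. Among them were EHHADH (1.14), CAT (1.06), the peroxisomal catalase, and ACAA1 (0.98), a thiolase. In AFB1 against CON, AFB1_CUR against AFB1 and AFB1_CUR against CON, 0 of the 21 were called, beside 1.75%, 0.94% and 1.64% of all tested genes. In the same order, 3, 0 and 3 of the 21 had an unadjusted p under 0.05 by edgeR, where 5.03%, 2.3% and 5.5% of all genes did. Of 11 tested peroxisomal genes outside the pathway entry, 6 had a positive slope past the adjusted limit, including LONP2 (0.69), a protease of the matrix, and 0 were called between groups. Among 7 tested regulators, PPARA (0.65) and HNF4A (0.69) had a positive slope past the adjusted limit and TFEB (−0.27) a negative one, and 0 differed between groups at the limits used. Of all tested genes, 12.3% had a positive and 13% a negative slope by this limit. With the replicate block, 1 of the 21, 0 of the 11 and 0 of the 7 slopes passed. Under that block 0.553% of all genes had a positive and 0.189% a negative slope past the limit, so counts of 0 in such small sets say little.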

How the data were processed

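RNA labelled as kidney from 15 sheep was sequenced as paired reads from a strand-marking library kit. The authors trimmed and aligned the reads and deposited 1 table that holds, per gene and library, the counted reads (a raw count) and FPKM. The submitters' processing notes name cutadapt 1.9, HISAT2 2.2.1, StringTie 2.1.6, DESeq2 and edgeR, without their roles. For the genome build and for the strand setting of the counting, the sources used here give nothing. The gene positions equal those of a RefSeq table for ARS-UI_Ramb_v3.0 for 96.6% of 24947 genes matched by symbol. Doses, age and housing come from the study's methods. Groups come from the sample titles.

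The 13193 genes with 5 or more of all 15 libraries at an FPKM of 1 or above were tested on the deposited counts. The test used edgeR 4.0.16 (R 4.3.3) after TMM scaling, with 14 libraries and 3 groups in 1 quasi-likelihood model. Genes were called at a fold change above 1.5 with p under 0.05 before adjustment, and Benjamini-Hochberg adjusted p values over all tested genes were counted apart. Slopes used the mean log2(FPKM + 1) of 9 of the 10 listed proximal tubule markers found in the table as a covariate beside group. Levels are FPKM as deposited. Single values were compared by exact permutation tests in SciPy 1.17.1. The fitting script was tested on simulated data. Alternatives were DESeq2 1.42.0, limma 3.58.1 on log2 FPKM with pseudocounts of 1 and 0.1, RLE size factors, no filter, the replicate number as a block, marker scores as covariates and the omission of libraries. Named members were those called, not overlapping, at the extremes of difference, slope, level or of AFB1 replicate 1, and all oxidases and PEX genes. NUDT7, PHYHD1, NUDT19, AMACR, BAAT, ECH1, PECR, HSD17B4, HSDL2, EPHX2, NOS2, ACBD5 and LOC121816309 were named beyond this rule after their values were seen. A few genes that entered the counts are not reported by name here. The members, role lists and marker lists were chosen with earlier results of these data known.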

Additional observations from a re-analysis of the deposited data

Results flagged for a closer look

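Among 198 groups of 4 or 5 libraries (66 named members in 3 groups), 13 held a library far from the rest by Dixon's test, and chance alone flags about 1 in 20 groups. In AFB1_CUR replicate 2, which also had the highest leukocyte and the lowest proximal tubule score, 6 members stood apart from the other 4 AFB1_CUR libraries. GTL2 (59.2 FPKM against 40.2 to 45.1), LOC114114483 (17.9 against 1.66 to 3.88), PEX7 (9.45 against 7.02 to 7.59) and RASGEF1B (5.82 against 2.13 to 3.07) were higher there, and ABCD3 (24.3 against 37.9 to 42.1) and PIPOX (25.8 against 50.3 to 60.1) were lower. In AFB1 replicate 2, FAR1 (2.90 against 1.46 to 1.70) and MDFIC (1.33 against 0.82 to 0.87) were higher than in the other 3 AFB1 libraries. ABCD3 was highest in AFB1 replicate 5 (54.8 against 28.2 to 31.3), the AFB1 library with the highest proximal tubule score. In CON, HRG (15.5 against 0.40 to 2.34) and PEX11A (5.65 against 1.87 to 2.2) were highest in replicate 5, LOC105607887 (4.61 against 0 to 0.98) in replicate 4 and XG_1 (2.25 against 0.56 to 0.88) in replicate 2.

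In AFB1 replicate 1, which was kept out of the main comparisons of groups, 31 of the 65 tested known-role members had a higher FPKM than in every CON library, where 13.8% of all tested genes did.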

How the results depend on the processing

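The number of called members, 0 in AFB1 against CON, became 6 with all 15 libraries (4.84% of all genes, and likewise below), 5 with no filter, 2 with only the 2 groups (2.19%) or with the proximal tubule score as a term (2.11%), and 1 with DESeq2 (2.14%) or with limma at pseudocounts of 1 (0.796%) and 0.1 (1.51%). For AFB1_CUR against AFB1, 0 became 6 with all 15 libraries (3.98%), 9 without the filter, 2 with limma on log2(FPKM + 0.1) (1.02%) and 1 (1.69%) without AFB1_CUR replicate 2 and AFB1 replicate 2 (an omission chosen after seeing the data). For AFB1_CUR against CON, 1 became 0 with all 15 libraries (0.993%) or with the adjusted p, 3 with DESeq2 (1.94%), 2 with RLE size factors (1.66%) or with limma on log2(FPKM + 0.1) (1.35%), 3 with the replicate block (2.15%) and 16 without the filter. Without the filter, 325 members in place of 135 were tested, and the calls among all genes made up 3.41%, 2.78% and 3.65% in the 3 comparisons. Leaving out 1 library at a time gave 0 to 4 calls in each comparison, and of all genes it called 1.55% to 3.48%, 0.917% to 2.05% and 0.947% to 2.36%. The 4 came without AFB1 replicate 5 in the first, AFB1_CUR replicate 2 in the second and AFB1_CUR replicate 3 in the last, and the last had 0 calls without AFB1_CUR replicate 1. In the first, AFB1 replicate 3 left out gave 3 calls, CON replicate 3, AFB1 replicate 4 or AFB1_CUR replicate 2 gave 2, and CON replicate 1 or 2 or AFB1_CUR replicate 4 gave 1. In the second, AFB1 replicate 3 or 5 gave 2, and AFB1 replicate 2 or AFB1_CUR replicate 3 gave 1. In the last, CON replicate 5 or AFB1_CUR replicate 4 or 5 gave 3, and CON replicate 2 or 4 or AFB1 replicate 3 gave 2. With all 15 libraries the median difference of the known-role members was 0.23 in the first and −0.29 in the second comparison, and with 1 library left out it ran from −0.23 to 0.05, from −0.16 to 0.14 and from −0.15 to −0.02 in the 3 comparisons.

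The replicate numbers are shared by the groups, but nothing says what they stand for, and they were not taken to pair the libraries. Of 13 pairs with the same number, 6 had deviations from the group means correlated above 0.1 (median 0.093, range −0.30 to 0.60, the 3 pairs of replicate 2 at 0.41 to 0.60). Of 52 pairs with other numbers, 14 did (median −0.037). These correlations do not decide whether the libraries are paired. With this replicate block, 0 members (0 of them known-role) had a slope past the adjusted limit in place of 49 and 33, and 98 of all genes did. The median slope was then 0.33, and all genes had 10.5% positive slopes at an unadjusted p under 0.05, where 21 of the 65 known-role members had one. The score of the loop and collecting duct in place of the proximal tubule score gave 0 members, 0 known-role members and a median of −0.32, but by this score 0 of all 13193 genes passed too. On log2(FPKM + 1), where the median slope of all genes was −0.12, limma called 30 known-role members positive and 1 negative. With 1 library left out, 30 to 51 members and 22 to 37 known-role members passed, with medians of 0.38 to 0.53; the 30 came without AFB1 replicate 5, and the 22 without AFB1 replicate 5 and without AFB1_CUR replicate 2. With all 15 libraries, where AFB1 replicate 1 lies far below the rest on the score, the median slope was −0.11 and the known-role members with a positive slope numbered 14 in place of 58 of 65. Among the named members whose slope had passed, it changed sign for ABCD3 (−0.0036), AGXT (−0.0169), CROT (−0.49), DECR2 (−0.0663), GTL2 (0.25), HACL1 (−0.12), HAO1 (−0.26), HRG (−0.76), LOC101119050 (−0.0565), MPV17L (−0.15), PEX11A (−0.37), PEX11G (−0.34), PEX3 (−0.12), PHYH (−0.46) and PXMP2 (−0.0897).

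In AFB1 replicate 1, members above the other libraries numbered 30 of 135 in FPKM, 52 of 135 in CPM after TMM and 48 of 328 without the filter, and members below 65, 38 and 105. Without the filter 10.4% of all genes lay above and 40.9% below. The causes of these differences between settings were not tested. With 4 or 5 libraries a group and SEs near 0.2, small changes of single members could not be told from no change.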
